A study of Mus musculus with 6 samples.

Results

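Mitochondrial ribosomal protein genes were taken as all genes on the array whose annotated symbol starts with Mrpl or Mrps followed by a number. There were 76 of them among 16504 named genes and 19624 features in all, 47 with an Mrpl and 29 with an Mrps symbol. Mrpl40 had 2 probes, which were averaged, and the other genes had 1 each. Each gene was measured on 6 two-colour arrays of mouse lens, on each of which RNA of mature fiber cells in one channel was set against RNA of elongating fiber cells in the other. Both cell populations came from mice of the GFP transgenic strain TgN(GFPU)5Nagy, and no non-transgenic group was used. The sample labels name no treatment. Cells were cut by laser from sections 5 µm thick, guided by the GFP pattern at the border of the fiber syncytium. For arrays lens249 and lens250 the labels also give an age of postnatal day 5, a pool of littermates, a minimum of 200 cells and some 40 slices. Mature fibers were in channel 1 on lens249, lens487 and lens493, and elongating fibers on lens250, lens488 and lens455.

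Mitochondria have ribosomes of their own, descended from those of bacteria, which make the few respiratory chain subunits encoded by mitochondrial DNA. All their proteins are encoded in the nucleus and imported, and many of them have no counterpart in bacteria. In the lens, maturing fiber cells lose their nuclei and their mitochondria, whereas elongating fibers still have both. The array data address whether transcripts of these proteins differed between the 2 stages.

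Values below are log ratios in deposited units, turned so that all 6 arrays run one way, with each array centred on its median. Neither the base of the logarithm nor the channel used as numerator is given in the sources used here. The positive side is the side of the lysosomal nuclease Dnase2b (1.81 ± 0.30, SD, n = 6) and the negative side that of N-cadherin, Cdh2 (-1.78 ± 0.54). With channel 1 as numerator a positive value would be the higher one in mature fibers, and with channel 2 in elongating fibers; this exchanges the sides of all genes together. A ratio holds no level, so whether a gene was expressed at all cannot be read from these data, and fewer cells of a type in a sample cannot be told apart from less RNA per cell. P-values are two-sided, from limma fitted to all 19624 features with a term for dye, adjusted by Benjamini-Hochberg over all of them. The labels do not say which arrays came from separate animals or extracts, so the p-values measure the spread between arrays, which may be technical.

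None of the 76 genes passed an adjusted p of 0.05 in limma, where 339 features, or 1.73%, did so (0.372% as positive and 1.36% as negative calls). The smallest adjusted p was 0.063. At an unadjusted p under 0.05 there were 20 genes, 26.3% of the 76, against 16.2% of all features. Of these, 15 lay on the negative side (19.7% against 8.94%) and 5 on the positive side (6.58% against 7.28%). These p-values treat the 6 arrays as independent, although the arrays correlate in pairs, as described below. With each pair averaged, 12 of the 76 genes and 2395 of 19624 features had an unadjusted p under 0.05 in limma. The gap between the shares was narrower there. The means of 50 of the 76 genes were below 0 (65.8% against 49% of all features), and their median was -0.09 against 0.003 over all features. A single sign on all 6 arrays was found for 8 genes, 10.5% against 9.17% of all features, so that share was near the background. All 8 were negative (10.5% against 5.65% of all features), and 0 genes were above 0 on all arrays (3.52% of all features). The 8 were Mrpl53, Mrps14, Mrps34, Mrpl17, Mrps15, Mrpl46, Mrpl12 and Mrpl23.

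**Figure D1:**
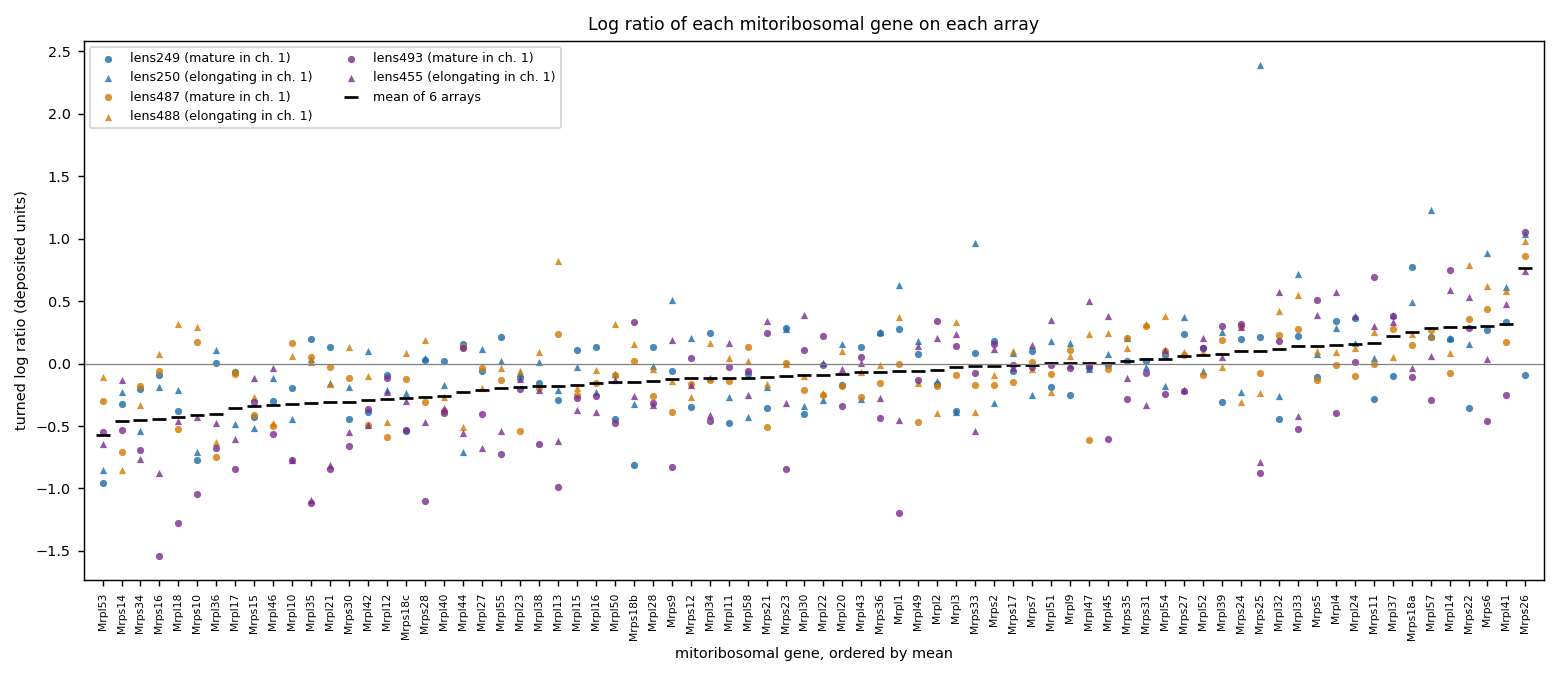
Turned log ratio (deposited units) of each of the 76 mitoribosomal genes, ordered by mean, on each of the 6 arrays; colours mark pairs of arrays, circles and triangles the 2 channel orientations, and black bars the means. Means run from -0.57 for Mrpl53 to 0.76 for Mrps26, and the values of lens493 and lens455 are the lowest for many genes on the left.

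The sequence before the transcription start is shown for the gene with the largest value on each side (Mrps26, Mrpl53), for the negative gene with the lowest p (Mrps15) and for a gene that was low on lens493 and lens455 only (Mrpl35). Each stretch covers 150 bases up to the last base before the start, 5′ to 3′ on the gene's strand, from RefSeq, build GRCm38.p6. They lie at chr2:130563607-130563756 (plus strand), chr6:83108958-83109107 (plus), chr4:126046778-126046927 (plus) and chr6:71823785-71823934 (minus). Capitals mark matches to the core motif of GABP (CCGGAAG, or CTTCCGG on the other strand), an ETS-family activator of many nuclear genes for mitochondria.
Mrps26: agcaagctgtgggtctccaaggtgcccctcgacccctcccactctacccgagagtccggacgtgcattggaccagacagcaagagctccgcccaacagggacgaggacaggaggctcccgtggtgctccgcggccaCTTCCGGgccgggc
Mrpl53: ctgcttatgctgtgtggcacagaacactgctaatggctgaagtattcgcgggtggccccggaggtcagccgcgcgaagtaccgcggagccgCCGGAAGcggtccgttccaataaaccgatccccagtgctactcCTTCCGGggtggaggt
Mrps15: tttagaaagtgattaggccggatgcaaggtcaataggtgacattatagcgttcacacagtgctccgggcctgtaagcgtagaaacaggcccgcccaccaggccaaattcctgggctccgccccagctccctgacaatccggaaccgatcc
Mrpl35: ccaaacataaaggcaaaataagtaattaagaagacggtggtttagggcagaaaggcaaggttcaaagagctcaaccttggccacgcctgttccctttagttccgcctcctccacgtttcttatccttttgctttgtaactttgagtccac

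Promoter windows of 300 bases (250 before and 50 after the start) were found for 68 of the 76 genes; those of Mrps34, Mrps28, Mrpl38, Mrpl13, Mrpl15, Mrps35, Mrpl54 and Mrpl4 were not used. On either strand, the GABP core CCGGAAG stood in 25 of the 68 (36.8%), against 14.8% of 13200 genes on the array and 9.93% of all 27025 genes with a window. The core GCGCANGCG of NRF1, another activator of nuclear genes for mitochondria, stood in 16 (23.5% against 11.3% and 7.03%), and AAGATGGC, the core of the zinc finger factor YY1, in 12 (17.6% against 3.95% and 3.19%). At least 1 of the 3 was found in 43 of the 68 (63.2% against 26% and 17.8%). The median GC content of the windows was 58.2% for the 68 genes and 58.3% for the genes on the array. A GABP and a YY1 match can share the letters AAG, and a match is a string of letters and not a shown binding site.

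Log ratios of genes with and without each core were set side by side, with no test. The median log ratio was -0.10 with and -0.06 without the GABP core, and -0.09 with and -0.08 without the NRF1 core. With the YY1 core, 6 of 12 genes were below 0 and the median was 0.02; without it, 39 of 56 were below 0 and the median was -0.10. Mrps26 and Mrpl53, at opposite ends, both carry the GABP core close to the start (from -14 to -8 in Mrps26, and from -59 to -53 and from -16 to -10 in Mrpl53, counting back from the start). Mrps26 also holds 2 overlapping NRF1 matches from -2 onward, and Mrpl35 a YY1 match from 24 to 31 after the start. Mrps15 holds none of the 3.

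Among proteins of the small subunit, which reads the messenger RNA, Mrps26 stood apart on the positive side. Mrps26 is one of the proteins that mitochondrial ribosomes added to the bacterial plan. Its turned log ratios were 1.04 on lens250, 0.86 on lens487, 0.98 on lens488, 1.05 on lens493 and 0.74 on lens455, but -0.09 on lens249. The other 5 arrays thus lay close together and lens249 far below them. Its mean was 0.76 ± 0.43 (SD, n = 6; limma 95% interval 0.41 to 1.12, adjusted p = 0.063), which would be 1.70-fold on a log2 scale and 5.81-fold on a log10 scale. Without lens249 the mean was 0.94 and Mrps26 passed (limma adjusted p = 0.033), as it did under 3 other settings given in the closing section.

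On the negative side of the small subunit, Mrps15, the counterpart of a bacterial protein that binds the small ribosomal RNA early in assembly, had the lowest p. Its values were -0.43 on lens249, -0.51 on lens250, -0.41 on lens487, -0.27 on lens488, -0.31 on lens493 and -0.12 on lens455. Every array was below 0, and the mean was -0.34 ± 0.14 (limma adjusted p = 0.071). Mrps34, a mitochondrial addition needed in human and mouse cells for stability of the small subunit, had -0.20, -0.54, -0.18, -0.33, -0.70 and -0.76 in the same array order. The mean of Mrps34 was -0.45 ± 0.25 (limma adjusted p = 0.077), with lens493 and lens455 lowest.

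Mrps14, which sits in the head of the subunit, had -0.33, -0.23, -0.71, -0.85, -0.53 and -0.13 in that order, a mean of -0.46 ± 0.28 (limma adjusted p = 0.10). Here lens487 and lens488 were the lowest arrays. Mrps16 and Mrps10, both with bacterial counterparts, had means of -0.45 ± 0.63 and -0.41 ± 0.54 (limma adjusted p = 0.38 and 0.34). For Mrps16 these means came from 2 arrays: lens493 had -1.54 and lens455 -0.88, while the other 4 lay between -0.19 and 0.07.

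On the positive side Mrps6, the counterpart of bacterial S6, had a mean of 0.30 ± 0.47 and Mrps22, a mitochondrial addition whose human gene is mutated in a mitochondrial disease, 0.29 ± 0.39 (limma adjusted p = 0.39 and 0.30). Both had arrays on either side of 0: Mrps6 ranged from -0.46 on lens493 to 0.88 on lens250, and Mrps22 from -0.35 on lens249 to 0.79 on lens488. Mrps25 had the widest spread of all 76 genes, 2.39 on lens250 against -0.88 to 0.21 on the other 5, so its mean of 0.10 ± 1.19 describes no array. Mrps17 had the narrowest, with every array between -0.15 and 0.10 and a mean of -0.01 ± 0.09 (95% interval -0.15 to 0.13). Of the 29 genes with an Mrps symbol, 18 were below 0 and the median was -0.02.

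In the large subunit, which joins amino acids, Mrpl53 had the most negative value of all 76 genes. This mitochondrial addition lies near the stalk, where translation factors bind. Its log ratios were -0.96 on lens249, -0.85 on lens250, -0.30 on lens487, -0.11 on lens488, -0.55 on lens493 and -0.65 on lens455. All 6 were below 0, with lens487 and lens488 nearest to it. The mean was -0.57 ± 0.32 (limma adjusted p = 0.081), which would be 1.48-fold on a log2 and 3.70-fold on a log10 scale.

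Of the 5 measured genes of the stalk 4 were below 0, with a median of -0.28: Mrpl53, Mrpl10 (-0.33 ± 0.40), Mrpl12 (-0.28 ± 0.20), whose protein also binds the mitochondrial RNA polymerase, and Mrpl11 (-0.12 ± 0.23). The remaining one, Mrpl54, had 0.04 ± 0.22. Of 7 genes of the central protuberance, which faces the small subunit's head, 6 were below 0, with a median of -0.21. They included Mrpl46 (-0.33 ± 0.22, limma adjusted p = 0.11), below 0 on all arrays, Mrpl18 (-0.42 ± 0.52, adjusted p = 0.23) and Mrpl40 (-0.26 ± 0.16, adjusted p = 0.17), while Mrpl52 had 0.07 ± 0.12. Without lens493 and lens455, 5 of the 7 central protuberance genes were below 0, with a median of -0.06. The 2 probes of Mrpl40 had the same sign on 5 arrays and opposite signs on lens249, at 0.16 and -0.12. Of 8 genes around the tunnel exit, where the new chain leaves, 4 lay on each side, with a median of -0.04, from Mrpl17 (-0.36 ± 0.34) to Mrpl24 (0.16 ± 0.19). None of these 20 genes passed the test.

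On the positive side of the large subunit, Mrpl41 had the largest mean, 0.32 ± 0.32 (limma adjusted p = 0.14). It was above 0 on 5 arrays, from 0.17 to 0.61, and at -0.25 on lens493. Mrpl14, which lies at the interface to the small subunit, had 0.29 ± 0.31 and was highest on lens493 (0.75) and lens455 (0.59) (adjusted p = 0.30). Mrpl57 had 0.28 ± 0.51, with 1.23 on lens250 and -0.29 to 0.27 on the other arrays (adjusted p = 0.46). Of the 47 genes with an Mrpl symbol, 32 were below 0 and the median was -0.11. Mrpl58, a peptidyl-tRNA hydrolase that became part of the ribosome, had -0.11 ± 0.20.

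**Figure D2:**
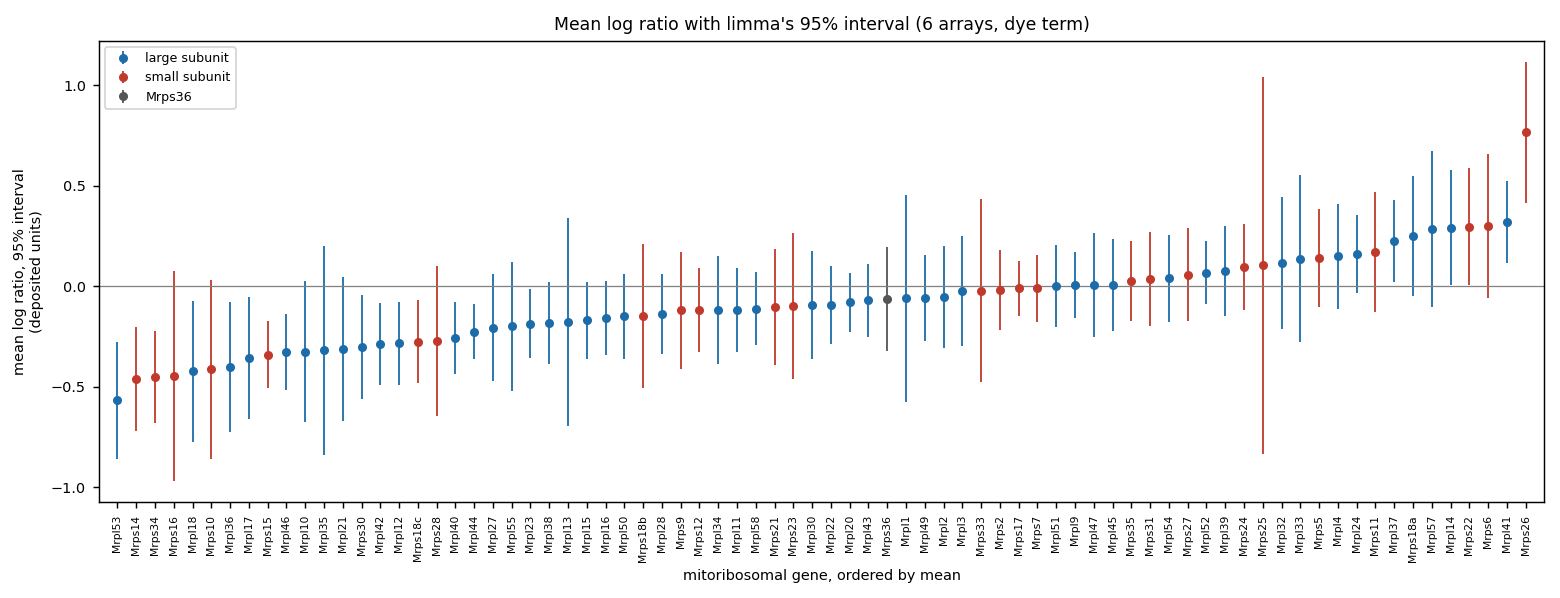
Mean log ratio of each of the 76 genes over 6 arrays (points) with limma's 95% interval (bars), in deposited units, coloured by subunit. The intervals of 56 genes include 0, and the median half-width is 0.25.

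Symbols and subunits do not match throughout: the proteins of Mrps30 and Mrps18a are placed in the large subunit in structures, and that of Mrps36 is now assigned to the oxoglutarate dehydrogenase complex. Grouped by structure, 33 of 49 large subunit genes (median -0.11) and 16 of 26 small subunit genes (median -0.02) were below 0. Without lens250 the medians were -0.10 and -0.08, and with mature fibers in channel 1 alone -0.165 and -0.11, so the gap between the subunits was narrower there; it was not tested. Mrps36 had -0.06 ± 0.28. Grouped by origin, 34 of 45 genes with a bacterial counterpart were below 0, with a median of -0.12, against 15 of 30 mitochondrial additions, with a median of -0.01. Without lens250 these were 32 of 45 and 19 of 30, with medians of -0.13 and -0.04. The shares were alike in both subunits for the bacterial class, 22 of 29 in the large and 12 of 16 in the small. Among the additions 11 of 20 were below 0 in the large and 4 of 10 in the small subunit. These counts carry no test, and both extremes, Mrpl53 and Mrps26, were additions.

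The precision of single genes limits what could be called. The 95% intervals had a median half-width of 0.25, from 0.14 for Mrps17 to 0.94 for Mrps25, and 56 of 76 included 0. For 48 genes the whole interval lay between -0.5 and 0.5. The smallest size that passed the threshold anywhere on the arrays was 0.34, and the median size of the 339 was 0.65. Of the 76 genes, only Mrps26 had a mean above 0.65 in size. The standard error of the 76 genes had a median of 0.10 against 0.08 over all features, and their SD 0.29 against 0.23.

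The spread of these genes followed pairs of arrays. Across the 76 genes, the turned ratios correlated most between lens493 and lens455 (r = 0.72), lens487 and lens488 (r = 0.65) and lens249 and lens250 (r = 0.47). In the other 12 combinations r lay between -0.03 and 0.28. By rank the same 3 pairs had rho of 0.50 to 0.71 and the others -0.10 to 0.25. Each pair joins opposite channel orientations, and genes of an array share its hybridisation, so these values are descriptions with n = 76 genes. Over all 19624 features the pairs had r = 0.45, 0.61 and 0.14 in the same order, and the other combinations 0.04 to 0.34. Lens493 and lens455 are the arrays left once the others are paired by consecutive title numbers. Whether the members of a pair share RNA is not given in the labels.

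**Figure D3:**
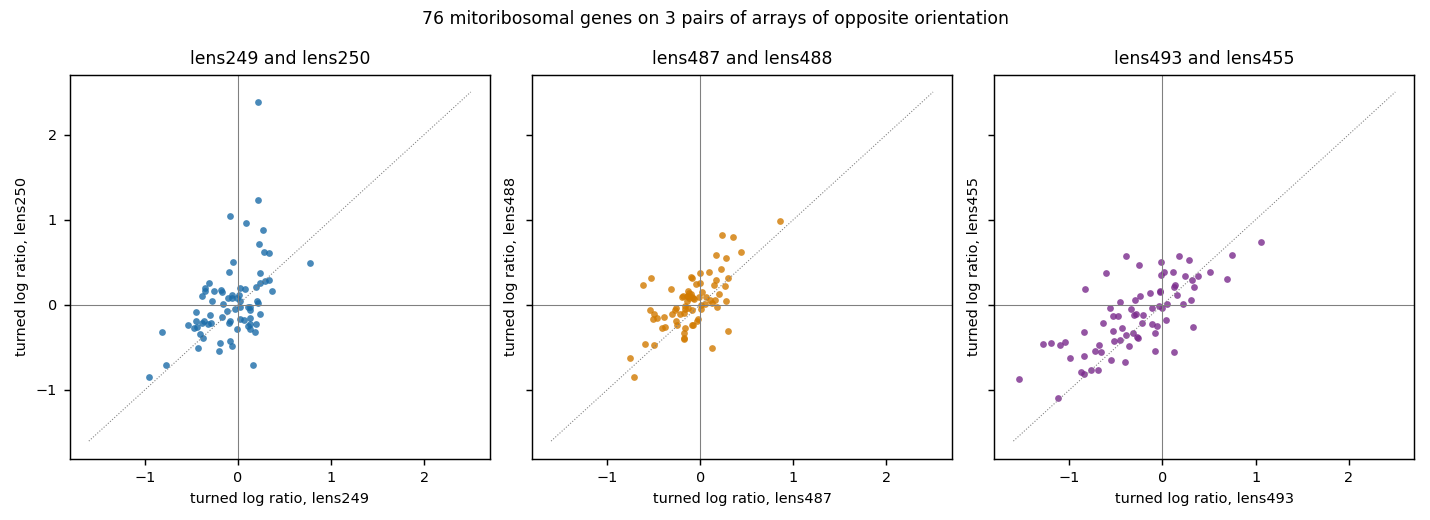
Turned log ratios of the 76 genes on 3 pairs of arrays of opposite channel orientation (each point a gene, dotted line equality, deposited units). Points follow the diagonal most closely for lens493 and lens455 (r = 0.72), where most of them lie below 0.

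The shift toward the negative side was largest on one of these pairs. The median of the 76 genes was -0.27 on lens493 and -0.13 on lens455, against -0.06 on lens249, -0.03 on lens250, -0.09 on lens487 and 0.05 on lens488, where the median over all features was within 0.001 of 0 on each. On lens493 55 of the 76 were below 0, on lens488 35. Both lens493 and lens455 were under -0.5 for 11 genes (14.5% of the 76, against 4.56% of all features). Each of the other pairs had 2 such genes, or 2.63% of the 76. Over all features the share was 1.85% for lens249 and lens250 and 3.83% for lens487 and lens488. Mrpl35 had -1.12 and -1.10 on these arrays and 0.01 to 0.20 on the other 4. Mrpl21 had -0.84 and -0.81 against -0.16 to 0.14, and Mrpl55 -0.72 and -0.54 against -0.13 to 0.22. Without lens493 and lens455, 47 of 76 genes were below 0 and the median was -0.05. With each pair averaged to 1 replicate, 0 of the 76 genes passed in limma, and 12 had an unadjusted p under 0.05. Over all 19624 features these counts were 0 and 2395.

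The sign of Mrpl44, a protein at the tunnel exit related to ribonuclease III, differed between the channel orientations. With mature fibers in channel 1 its turned ratios were 0.16, 0.13 and 0.13, and with elongating fibers in channel 1 they were -0.71, -0.51 and -0.56. Its mean was -0.23 (limma 95% interval -0.36 to -0.09, adjusted p = 0.12) and its dye term 0.37 (adjusted p = 0.24), neither past the threshold. Mrpl45 was the only other gene whose sign differed between the orientations on every array, which makes 2 of 76 (2.63% against 8.38% of all features). For the dye term, 0 of 76 genes passed in limma and 4 had an unadjusted p under 0.05 (5.26% against 12.6%).

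Other genes of the mitochondrial ribosome and its use were listed for comparison, to be read against the 1.73% of all features that passed and the 16.2% with an unadjusted p under 0.05. Of 4 ribosomal proteins with other symbols 0 passed and 1 had an unadjusted p under 0.05 in limma, with 2 below 0 and a median of -0.06. That gene was Dap3, a small subunit protein that binds GTP. It had -0.47 ± 0.48 (limma adjusted p = 0.24), with -1.18 on lens493 and -0.93 on lens455. Of 13 mitochondrial translation factors 0 passed in limma and 4 had an unadjusted p under 0.05, with a median of -0.01. The initiation factor Mtif2 had 0.41 ± 0.29 (adjusted p = 0.071), the release factor Mtrf1 -0.21 ± 0.14 and Mtfmt, which formylates the initiator tRNA, -0.46 ± 0.51. Of 20 genes that charge mitochondrial tRNAs 0 passed and 3 had an unadjusted p under 0.05 in limma, with a median of 0.03; Gatc, of the glutamine amidotransferase, had -0.42 ± 0.23, the phenylalanine enzyme Fars2 0.39 ± 0.27 and Gatb, the partner of Gatc, 0.24 ± 0.27.

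Of 29 genes of mitoribosome assembly and rRNA maturation 0 passed and 4 had an unadjusted p under 0.05 in limma (median -0.04), among them the pseudouridine synthase Rpusd4 (-0.61 ± 0.51), the GTPase Mtg2 (0.25 ± 0.20) and the helicase Ddx28 (-0.23 ± 0.20). Of 24 genes of mitochondrial transcription and RNA processing 0 passed and 5 had an unadjusted p under 0.05 in limma (median 0.01). Hsd17b10, a subunit of mitochondrial RNase P, had -0.46 ± 0.19 and was below 0 on 6 of 6 arrays (adjusted p = 0.054). The helicase Supv3l1 had 0.22 ± 0.15 and Mterf2 -0.34 ± 0.28. Of 13 regulators of nuclear genes for mitochondria 0 passed in limma, 0 had an unadjusted p under 0.05, and Gabpb1, Yy1 and Gabpa had -0.20 ± 0.21, 0.29 ± 0.53 and 0.18 ± 0.23.

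Genes of the respiratory chain, which the mitochondrial ribosome serves, and of the cytosolic ribosome were counted in the same way. The 85 measured nuclear genes of the respiratory chain had 58 below 0 and a median of -0.07, with 2 past the threshold, both negative (2.35% against 1.36% of all features). The 70 cytosolic ribosomal protein genes had 47 below 0 and a median of -0.14, with 5 past the threshold, all negative (7.14%). The other 27 and 23 genes of these lists lay above 0, the highest of them Rps29 of the cytosolic small subunit at 0.42. Of the 76 mitochondrial ribosomal protein genes 0 passed the threshold, with 50 below 0 and 26 above 0. Differences between these lists were not tested.

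**Figure D4:**
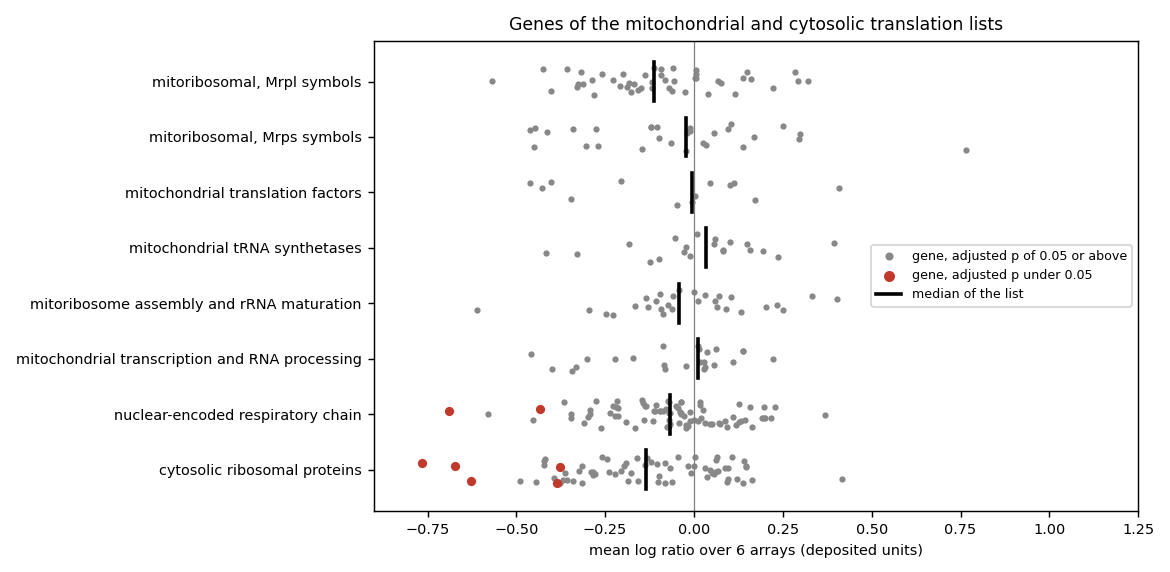
Mean log ratio over 6 arrays (deposited units) of each gene in 8 groups, with the group's median as a black bar and genes with an adjusted p under 0.05 in red. No mitoribosomal gene is red, and Mrps26 at 0.76 is the point farthest to the right.

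Markers of fibers and of neighbouring cell types were set beside these values. Of 12 measured fiber markers Dnase2b and Cdh2 passed, on opposite sides, and the list had 6 genes on each side of 0 and a median of 0.003. Of 10 lens epithelium markers Col4a1 passed (-0.95 ± 0.38, limma adjusted p = 0.030), and 3 had an unadjusted p under 0.05 in limma. These were Col4a1, Col4a2 (-0.58 ± 0.51) and Ccnd1 (-0.34 ± 0.24), all negative, while the list had 5 genes on each side of 0 and a median of 0.01. The median of the epithelium markers was -0.03 on lens249, -0.13 on lens250, -0.18 on lens487, 0.06 on lens488, -0.26 on lens493 and 0.001 on lens455. Lens493 was lowest and lens488 highest, as for the mitoribosomal genes, while lens455 was second lowest for those and second highest here. Single markers differed from this median. Col4a1 had its lowest values on lens455 (-1.37) and lens493 (-1.28). Col4a2 had -0.99 and -1.32 there, and Ccnd1 -0.58 and -0.44, whereas Foxe3 had 0.12 and 0.002. Of 7 macrophage markers Laptm5 passed (0.35 ± 0.21, limma adjusted p = 0.039), and 4 of the 7 were below 0, with a median of -0.01. Of 6 blood and vessel and 10 retina and pigment markers 0 passed in limma, with 0 and 1 at an unadjusted p under 0.05. The part of other cell types in the mitoribosomal values was not tested.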

How the data were processed

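The authors deposited 1 log ratio of the 2 channels per probe and array (22575 probes, 6 arrays, 0 missing values). The logarithm's base, the numerator, the scanner software and any background correction or normalization are not stated in the labels or files. The deposited values were therefore handled as a score in log units and not as log2. No intensities were used; the number of arrays limits the precision.

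The sign was turned on the 3 arrays that held elongating fibers in channel 1. Sets of at least 49 identical unlisted probes (10 sets, 1032 probes) were dropped as likely control spots, identical rows of a gene were counted once, and each array was centred on its median. Gene names came from the platform annotation: 18218 probes had 1 symbol, 16 several and 4341 none. The 76 genes all matched RefSeq (GRCm38.p6) by gene ID. Probes of a gene were averaged. limma 3.58.1 (R 4.3.3; lmFit, eBayes) was fitted to all features with terms for fiber population and dye. The fit was tried on simulated ratios with noise independent between arrays and no dye effect. That simulation does not cover arrays that correlate in pairs, as these do. Intervals are at 95%. SDs are over the 6 turned arrays and include the dye effect.

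Genes named with values were those past the threshold (adjusted p of 0.05), the 6 largest means on each side, the 6 lowest p, and up to 3 of lowest p from each list. Mrpl35, Mrpl21, Mrpl55, Mrpl44, Mrpl45, Mrps25, Mrps17, Mrpl23, Mrpl58, Mrps36, Foxe3, Rps29 and the genes of structural sites were picked after their values were seen. The gene family, lists and tests were chosen with earlier results of these data known. Alternatives were other normalizations, fits and probe choices and leaving out arrays. Figures were drawn with matplotlib 3.10.9.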

Additional observations from a re-analysis of the deposited data

Results flagged for a closer look

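Of the 76 genes, 4 had 1 of 6 arrays far from the other 5. At the cut-off used, 6 independent normal values would give about 1 in 20 genes, or 3.8. These arrays correlate in pairs, and the share over all features was not counted. Mrps26 had -0.09 on lens249 against 0.74 to 1.05 on the others. Mrps25 had 2.39 on lens250 against -0.88 to 0.21, and Mrpl57 had 1.23 on lens250 against -0.29 to 0.27. Mrpl23, a large subunit protein of the tunnel exit, had -0.54 on lens487 against -0.20 to -0.06.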

How the results depend on the processing

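No mitoribosomal gene passed with the settings of the report. Without the dye term 1 passed on the positive side (Mrps26, limma adjusted p = 0.040) and 1 on the negative (Mrpl53, 0.049), 2.63% of the 76 against 2.26% of all features. With quantile normalization 1 passed on the negative side (Mrps34, 0.043), 1.32% against 2.20%. With array weights 1 passed on the positive (Mrps26, 0.034) and 3 on the negative side (Mrps14, Mrps15 and Mrpl46, 0.034 to 0.046), 5.26% against 3.34%. With robust regression 2 passed on the positive (Mrps26, 0.013, and Mrpl41, 0.028) and 1 on the negative side (Mrps15, 0.030), 3.95% against 3.36%. Features called in all rose from 339 to 659 there and to 656 with array weights. Leaving out 1 array gave 0 to 1 on the positive side (Mrps26 without lens249, at 0.94, where 117 features passed in all) and 0 on the negative. Between 16 and 117 features passed in all with 1 array left out. Over all 21 alternatives the adjusted p of Mrps26 ran from 0.013 to 0.40. The other alternatives (no centring, scaling, single probes, named probes only, control spots kept, averaged pairs, each orientation alone, and leaving out each pair of arrays, the last chosen after the data were seen) gave 0 calls. With averaged pairs, with each orientation alone, and without lens249 and lens250 or lens487 and lens488, 0 of all 19624 features passed. Without lens493 and lens455, 69 features (0.352%) did. The absence of calls under these settings therefore says nothing particular to the 76 genes. The median of the 76 genes was below 0 under all 21 alternatives, from -0.15 with mature fibers in channel 1 alone to -0.02 with elongating fibers in channel 1 alone. None of the 14 genes followed through the alternatives (the 6 largest on each side and the 6 of lowest p) changed sign. They were picked for large means or low p on these same arrays, which favours a kept sign. The median of the 29 genes with an Mrps symbol moved from -0.02 to -0.10 without lens250 and -0.12 with mature fibers in channel 1 alone. The causes were not tested. The labels give no replicate numbers, so lens249 with lens250 and lens487 with lens488 were paired by neighbouring title numbers. Lens493 and lens455 were paired only as the arrays left over.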
